A study of Mus musculus with 6 samples.

Results

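The neutrophil granule and calprotectin genes examined here were S100a8, S100a9, Ngp, Camp, Ltf, Chil3, Mpo, Elane, Retnlg and Csf3r. They were taken by symbol from the probe sets (groups of array probes read as 1 value) whose annotation carried exactly 1 gene symbol. Each of the 10 genes was read by 1 such probe set, among 19938 genes and 35556 probe sets in all. Hepatic tissue came from 3 ARSB-null and 3 control mice, with 1 array per mouse. The ARSB-null mice were homozygous for a null allele of arylsulfatase B, a sulfatase of the lysosome that acts on sulfated glycosaminoglycans, and came from a colony bred from heterozygous animals. The controls were C57BL/6J mice that carried no allele named in the labels, and were not stated to be littermates. All 6 mice were males of 12 weeks on the C57BL/6J background, received no treatment, and per the labels were killed after ketamine and xylazine. The paper's methods instead name carbon dioxide inhalation and cervical dislocation.

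Neutrophils are short-lived phagocytes that are made in the bone marrow and pass through the liver in the blood. They carry their antimicrobial proteins in granules that form in sequence while the cell matures. The primary (azurophil) granules are filled first, with myeloperoxidase and elastase, and the secondary (specific) granules later, with lactoferrin and cathelicidin, so that much of the mRNA for granule proteins is found in marrow precursors and less in the circulating cell. Calprotectin, the heterodimer of S100A8 and S100A9, is a calcium- and zinc-binding protein of the neutrophil cytosol, and the receptor for granulocyte colony-stimulating factor (G-CSF), encoded by Csf3r, drives neutrophil production. In whole liver, fewer cells of a type and less RNA per cell cannot be told apart.

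The arrays matched their labels. The log2 signal of Arsb read 7.63, 7.46 and 7.64 in ARSB-null tissue, against 10.21, 10.23 and 10.21 in control tissue. Of the measured hepatocyte markers, Alb and Apoa1 had mean log2 signals of 14.25 and 14.36 in ARSB-null liver, close to the highest value on any array, 14.73. The granule and calprotectin genes lay at the other end. The deposited values hold no detection calls, and 9 of the 10 genes had a mean signal under the median of all probe sets, from the 10.3 percentile for Chil3 to the 48.8 percentile for Csf3r. The exception was Camp, at the 50.8 percentile. The defining neutrophil surface genes Ly6g and Cxcr2 were at the 21.6 and 19.7 percentiles. How far these signals stood above background is not known, and a difference near background is understated on this scale.

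None of the 10 genes passed an adjusted p of 0.05 from limma, in either direction, whereas 0.0197% of all probe sets did. The analysis of variance of the paper's methods also called 0 after adjustment. The mean was lower in ARSB-null liver for 9 genes and higher for 1, and the median of the 10 log2 differences was -0.17 (ARSB-null minus control), against 0.001 over all probe sets and -0.012 over the 9209 probe sets with 1 symbol and a signal under the median. A median of this size was not particular to these genes. Marker lists had -0.25 (erythroid), -0.20 (monocyte, with Chil3), -0.18 (Kupffer cell) and -0.16 (platelet and megakaryocyte). Those of other cells were nearer 0, with -0.05 (T and NK cell), -0.02 (eosinophil, basophil and mast cell), 0.01 (B cell), 0.03 (blood progenitor) and 0.05 (hepatocyte). At an unadjusted p under 0.05, limma gave 3 genes lower, Chil3, Ngp and Ltf, and 0 higher, and 3.19% of all probe sets were lower at that level. For 4 genes, these 3 and Retnlg, every ARSB-null liver lay below every control liver, and for 0 genes above. Over all probe sets, 6.78% had no overlap with the ARSB-null livers lower and 5.14% with them higher, and among the probe sets with 1 symbol and a signal under the median 4.68% had no overlap with them lower. With 3 mice against 3, an exact permutation test cannot go below p = 0.1, the value it gave for each of these 4 genes.

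**Figure D1:**
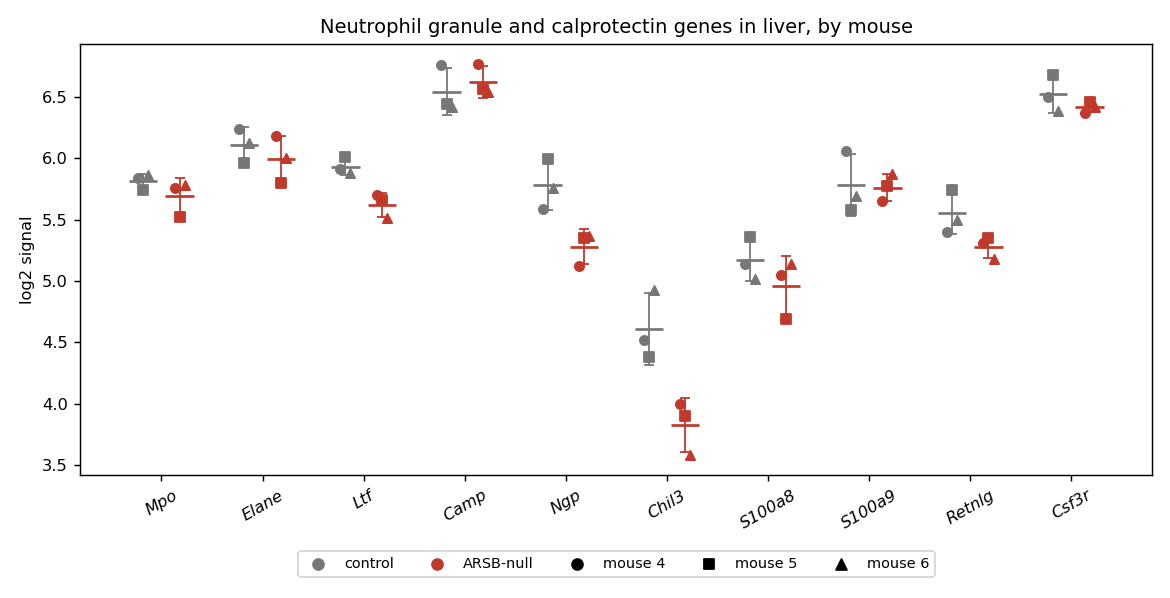
Log2 signal (vertical axis) of the 10 genes, with 1 symbol per liver; controls are grey and ARSB-null mice red, the symbol tells the number in the label, and the bars show the mean and its SD (n = 3). The ARSB-null livers lie below all controls for Ltf, Ngp, Chil3 and Retnlg, and the groups overlap for the other 6 genes.

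The primary granule genes of the set, Mpo and Elane, did not differ detectably. Mpo encodes myeloperoxidase, which makes hypochlorous acid from hydrogen peroxide. Its signal (log2) was 5.76, 5.52 and 5.78 in ARSB-null tissue, against 5.84, 5.74 and 5.86 in control tissue. The ARSB-null mice numbered 4 and 6 reached the range of the controls and the mouse numbered 5 lay under it, and the log2 difference was -0.13 (95% interval -0.39 to 0.14; adjusted p = 0.982 from limma). Elane encodes neutrophil elastase, a serine protease. It had 6.18, 5.80 and 6.00 in ARSB-null tissue, against 6.24, 5.96 and 6.12 in control tissue. Within each group the mouse numbered 4 was highest and the mouse numbered 5 lowest, and the log2 difference was -0.11 (95% interval -0.44 to 0.21; adjusted p = 0.989 from limma). The intervals for both genes included 0 and, at their lower ends, ratios of ARSB-null to control of 0.762 for Mpo and 0.740 for Elane. Without the ARSB-null mouse numbered 5 the log2 differences were -0.04 for Mpo and -0.02 for Elane, and for Elane they ran from -0.21 to -0.02 over the 6 arrays left out in turn.

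Of the other primary granule genes, 8 of 9 were measured, and limma called 0 of them in either direction, with a median log2 difference of 0.06. Prtn3, proteinase 3, had the log2 signals 6.53, 6.07 and 6.32 in ARSB-null liver and 7.25, 6.58 and 6.69 in the controls, without overlap (log2 difference -0.53, adjusted p = 0.802 from limma). Ctsg, cathepsin G, had a log2 difference of 0.07 (95% interval -0.17 to 0.31). Cd63, a tetraspanin of granule and lysosomal membranes that many cell types carry, had more signal in all 3 ARSB-null livers (log2 difference 0.87, adjusted p = 0.451 from limma), and Gusb, the lysosomal beta-glucuronidase that is also abundant in other cells, had less in all 3 (-0.28, adjusted p = 0.851).

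The 3 largest differences of the set were those of the chitinase-like gene Chil3 and the secondary granule genes Ngp and Ltf. Chil3 encodes Ym1, a lectin stored in mouse neutrophils and also made by some monocytes and macrophages. Its signal (log2) was 4.0, 3.90 and 3.58 in ARSB-null tissue, against 4.52, 4.38 and 4.93 in control tissue. The highest ARSB-null liver stood 0.38 below the lowest control, and the control numbered 6 was above the other controls. The means were 3.83 ± 0.22 and 4.61 ± 0.29 (SD, n = 3 each), a log2 difference of -0.78 with a standard error of 0.18 from limma (ratio of ARSB-null to control 0.582, 95% interval 0.433 to 0.782; adjusted p = 0.485). Chil3 was also the dimmest of the 10 probe sets.

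Ngp encodes neutrophilic granule protein, a cathelin-related protein of the secondary granules. It had 5.12, 5.35 and 5.37 in ARSB-null tissue, against 5.59, 5.99 and 5.76 in control tissue. Within each group the mouse numbered 4 was lowest, and the groups were apart by 0.23. The log2 difference was -0.50 with a standard error of 0.14 from limma (ratio 0.706, 95% interval 0.563 to 0.885; adjusted p = 0.609). Ltf encodes lactoferrin, which binds iron. It had 5.70, 5.66 and 5.51 in ARSB-null tissue, against 5.91, 6.01 and 5.88 in control tissue, with a narrow spread in each group. The log2 difference was -0.31 with a standard error of 0.10 from limma (ratio 0.808, 95% interval 0.683 to 0.956; adjusted p = 0.731). Without the ARSB-null mouse numbered 6 or the control numbered 5, the unadjusted p of Ltf was 0.0728 and 0.0731 from limma.

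Camp encodes cathelicidin, the precursor of the antimicrobial peptide CRAMP. It was the gene whose mean was higher in ARSB-null liver, with 6.77, 6.56 and 6.54 against 6.76, 6.44 and 6.42 in the controls. The mouse numbered 4 was highest in both groups, and the log2 difference was 0.08 (95% interval -0.23 to 0.39; adjusted p = 0.993 from limma). It ran from 0.01 to 0.19 with 1 array left out, lowest without the ARSB-null mouse and highest without the control, both numbered 4. The genes of 3 secondary granule proteins, Ngp, Ltf and Camp, thus had the log2 differences -0.50, -0.31 and 0.08, and whether these differ from each other was not tested.

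**Figure D2:**
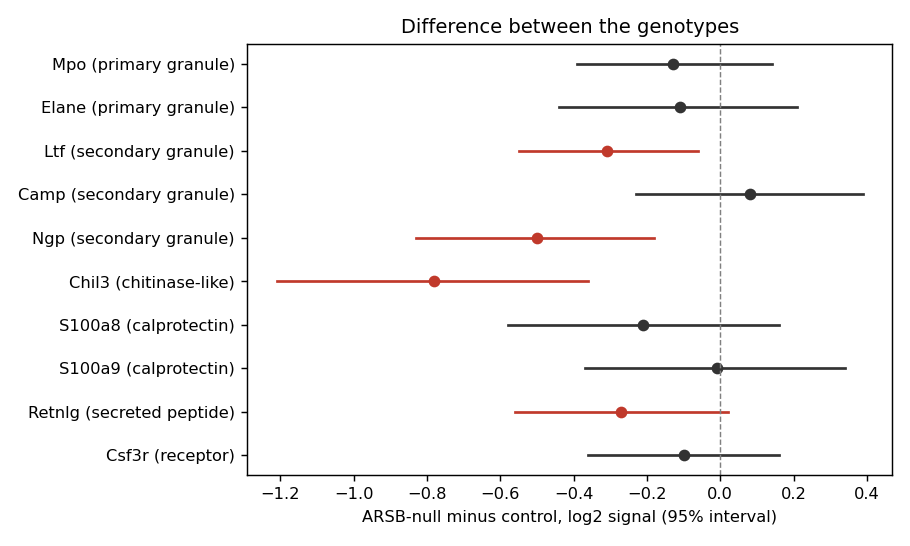
Log2 signal of ARSB-null minus control liver (horizontal axis) for each of the 10 genes, with its role in brackets; points are the differences and lines the 95% intervals from limma, in red where the groups do not overlap. The intervals of Ltf, Ngp and Chil3 lie below 0, that of Retnlg runs from -0.56 to 0.02, and none of the 10 genes passed after adjustment.

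Of the other secondary and tertiary granule genes, 17 of 20 were measured, and limma called 0, with a median log2 difference of -0.05. At an unadjusted p under 0.05, 3 were lower and 0 higher, and 3.19% of all probe sets were lower at that level. Lcn2, lipocalin 2, is stored in secondary granules and is also secreted by hepatocytes in the acute phase. Its signal (log2) was 9.07, 8.76 and 10.02 in ARSB-null tissue, against 11.98, 11.89 and 11.07 in control tissue, a difference of -2.37 (adjusted p = 0.232 from limma). Mmp8, the neutrophil collagenase, had 4.79, 4.30 and 4.29 against 4.90, 5.17 and 4.92, without overlap (log2 difference -0.54, adjusted p = 0.685). Mmp9, gelatinase B, differed by -0.15 (95% interval -0.41 to 0.11), Cd177 by -0.05 and Fcnb, ficolin B, by 0.00. Hp, haptoglobin, which hepatocytes also secrete, differed by -0.29 (adjusted p = 0.794), and Lyz2, the lysozyme of neutrophils and macrophages, by 0.42 (adjusted p = 0.843).

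The stretches of 250 bases upstream of the start of the 4 genes without overlap are printed here, since C/EBP factors and PU.1 are known regulators of granulocyte genes. They are the RefSeq sequences of GRCm38.p6, each read on the strand of its gene, for Chil3 at chr3:106167565-106167814 (minus strand), Ngp at chr9:110419558-110419807 (plus strand), Ltf at chr9:111019042-111019291 (plus strand) and Retnlg at chr16:48872358-48872607 (plus strand). Capitals mark matches, on either strand, to the C/EBP letters TTNNGNAA or to the PU.1 core GAGGAA.
Chil3: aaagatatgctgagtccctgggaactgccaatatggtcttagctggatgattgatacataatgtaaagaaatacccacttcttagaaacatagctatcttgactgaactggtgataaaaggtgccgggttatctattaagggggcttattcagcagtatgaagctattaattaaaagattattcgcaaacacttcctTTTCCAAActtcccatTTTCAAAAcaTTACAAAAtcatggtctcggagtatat
Ngp: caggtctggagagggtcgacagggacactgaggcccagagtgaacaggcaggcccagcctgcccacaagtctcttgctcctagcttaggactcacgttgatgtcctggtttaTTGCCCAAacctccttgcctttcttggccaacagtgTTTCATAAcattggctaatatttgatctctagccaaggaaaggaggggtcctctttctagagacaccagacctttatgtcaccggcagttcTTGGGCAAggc
Ltf: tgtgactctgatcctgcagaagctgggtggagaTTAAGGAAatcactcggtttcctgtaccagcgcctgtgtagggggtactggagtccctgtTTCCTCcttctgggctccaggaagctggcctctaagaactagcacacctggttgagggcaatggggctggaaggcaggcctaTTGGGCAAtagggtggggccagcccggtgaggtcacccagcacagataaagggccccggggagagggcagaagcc
Retnlg: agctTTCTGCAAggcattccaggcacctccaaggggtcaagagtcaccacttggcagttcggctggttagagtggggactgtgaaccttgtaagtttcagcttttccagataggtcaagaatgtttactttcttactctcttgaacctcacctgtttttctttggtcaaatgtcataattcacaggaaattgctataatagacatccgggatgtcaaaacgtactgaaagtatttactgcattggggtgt
All 10 genes had an entry in the promoter table. The C/EBP letters were found upstream of 6 of them (S100a8, S100a9, Ngp, Ltf, Chil3 and Retnlg), which include the 4 printed, and in 36.8% of all 32851 promoter windows of the same length. Ngp and Chil3 each held 3 matches, Ltf 2 and Retnlg 1. The PU.1 core was found upstream of 5 genes (S100a8, Ltf, Mpo, Elane and Csf3r), against 23.3% of all windows. Of the 4 printed stretches Ltf alone held a match to both, and these did not overlap. Such letters are common, and a match is not evidence of a bound site.

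The calprotectin genes did not differ detectably. S100a8 had log2 signals of 5.05, 4.69 and 5.14 in ARSB-null tissue, against 5.14, 5.36 and 5.02 in control tissue. The ARSB-null mouse numbered 5 was lowest and the other 2 lay within the controls. The log2 difference was -0.21 (95% interval -0.58 to 0.16, ratios of 0.669 to 1.12; adjusted p = 0.972 from limma), and it was -0.08 without the ARSB-null mouse numbered 5 and -0.12 without the control numbered 5. S100a9, its partner in the heterodimer, had 5.65, 5.77 and 5.87 in ARSB-null tissue, against 6.06, 5.58 and 5.69 in control tissue. The control numbered 4 was highest and the control numbered 5 lowest, so the ARSB-null livers lay inside the range of the controls. The log2 difference was -0.01 (95% interval -0.37 to 0.34, ratios of 0.774 to 1.27; adjusted p = 0.998 from limma), and it was 0.13 without the control numbered 4 and 0.04 without the ARSB-null mouse numbered 4.

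Among other S100 proteins and the receptors of calprotectin, all 20 listed genes were measured and limma called 0. S100a11 had a log2 difference of 0.22 and S100a4 one of 0.20 (adjusted p = 0.879 and 0.956). Tlr4, a receptor for S100A8 and S100A9, had 6.44, 6.61 and 6.41 in ARSB-null liver and 5.80, 6.30 and 6.09 in the controls, without overlap (log2 difference 0.42, adjusted p = 0.762), and its cofactor Ly96 differed by 0.19 (adjusted p = 0.971).

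Retnlg encodes resistin-like gamma, a small secreted protein of myeloid cells. It had 5.31, 5.35 and 5.18 in ARSB-null tissue, against 5.40, 5.74 and 5.50 in control tissue. No ARSB-null liver reached the lowest control, but by only 0.05, and the control numbered 5 was the highest. The log2 difference was -0.27 with a standard error of 0.12 (95% interval -0.56 to 0.02; adjusted p = 0.859 from limma). The difference was -0.34 without the control numbered 4 (unadjusted p from limma 0.0302), -0.17 without the control numbered 5 (0.218) and -0.22 without the ARSB-null mouse numbered 6 (0.181). Csf3r encodes the G-CSF receptor of neutrophils and their precursors. It had 6.37, 6.46 and 6.42 in ARSB-null tissue, against 6.5, 6.68 and 6.38 in control tissue. The control numbered 6 lay among the ARSB-null livers, and the log2 difference was -0.10 (95% interval -0.36 to 0.16; adjusted p = 0.989 from limma). It was -0.02 without the control numbered 5 and -0.17 without the control numbered 6. Csf3, the gene of its ligand G-CSF, had more signal in all 3 ARSB-null livers (6.46, 6.07 and 6.06 against 5.99, 5.67 and 5.91; log2 difference 0.34, adjusted p = 0.851).

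Among relatives of these genes in the chitinase-like, resistin-like, transferrin, peroxidase and colony-stimulating factor receptor families, 18 of 19 were measured, and limma called 0. The smallest p values were those of Csf1r, the receptor of macrophage colony-stimulating factor (log2 difference -0.33, adjusted p = 0.835), Csf2rb2 (0.34, adjusted p = 0.900), Chil1 (-0.24, adjusted p = 0.940) and Retnla (0.19, adjusted p = 0.952). Of 20 measured surface receptors and ligands of neutrophils, 0 were called and the median log2 difference was 0.03. Itgal, an integrin of all leukocytes, and C5ar1, the receptor of complement C5a, had less signal in all 3 ARSB-null livers (-0.34 and -0.30, adjusted p = 0.794 and 0.835), and the neutrophil chemoattractant Cxcl1 differed by 0.29 (adjusted p = 0.951). Ly6g, the marker that defines mouse neutrophils, had 4.93, 5.0 and 5.15 in ARSB-null liver and 5.26, 5.22 and 4.83 in the controls (log2 difference -0.07, 95% interval -0.41 to 0.27), and Cxcr2, a receptor of chemokines such as Cxcl1, had 4.82, 5.10 and 4.71 against 5.18, 5.07 and 4.75 (-0.12, 95% interval -0.50 to 0.25).

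The 11 transcription factors of granulocytes were all measured and limma called 0, with the smallest p for Gata1 (log2 difference 0.27, adjusted p = 0.843) and Cebpe, the C/EBP factor required for secondary granules (-0.20, adjusted p = 0.952). Klf5 and Runx1 differed by 0.13 and 0.15. Of 6 genes of the phagocyte NADPH oxidase, 5 were measured, with differences from -0.18 (Rac2) to 0.19 (Cyba) and 0 called; Ncf1 differed by -0.13 and Ncf4 by -0.09.

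Per mouse, the mean over the 10 genes of the log2 signal, centred gene by gene on the mean of the 6 arrays, was -0.07, -0.16 and -0.12 in the ARSB-null mice numbered 4, 5 and 6 and 0.13, 0.12 and 0.09 in the controls. The control numbered 5 was highest for 5 of the 10 genes, and an ARSB-null mouse was lowest for 8. Each ARSB-null mouse thus lay below each control in this mean. It includes Chil3, Ngp, Ltf and Retnlg, the genes without overlap, and for each of the other genes the groups overlapped. Over those other genes alone the mean did not separate the groups, as the ARSB-null mouse numbered 4 lay above the control numbered 6. How often other gene sets of this size separate the groups was not tested. The range over the 6 arrays was widest for Chil3 (1.35), Ngp (0.87) and S100a8 (0.67).

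Likeness to these 3 genes was measured by the root mean square distance between log2 profiles over the 6 arrays, each centred on its own mean. The closest genes outside the set were Fitm1, Cyp4a12a and Cyp4a12b for Chil3 (distances 0.16, 0.16 and 0.17), Pik3r3, Gngt1 and Bysl for Ngp (0.04, 0.05 and 0.06), and Mid1ip1, Cyp21a1 and Nap1l2 for S100a8 (0.06, 0.06 and 0.07). The closest member of the set was farther off in each case, with Ltf at 0.32 from Chil3, Retnlg at 0.16 from Ngp and Mpo at 0.15 from S100a8. The distance takes in chance variation of the arrays, and among 19938 genes some profiles are close in any case.

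Some markers of other blood cells also had less signal in ARSB-null liver. Over all probe sets, 3.19% were lower at an unadjusted p under 0.05 from limma. Of 9 measured erythroid markers, 4 were lower at an unadjusted p under 0.05 from limma and 0 after adjustment, and their mean log2 signal was 6.45 to 6.60 in the ARSB-null livers and 6.80 to 7.02 in the controls. Slc4a1, the anion exchanger of red cells, differed by -1.56 (adjusted p = 0.224), Alas2, of erythroid heme synthesis, by -0.81 (0.237), Tfrc by -0.84 (0.621) and Epb42 by -0.41 (0.806). Over the 9 markers the mean was lower in ARSB-null liver for 7 and higher for 2, the highest difference being 0.11. Slc4a1, Alas2 and Tfrc were the 3 erythroid markers without overlap, and without them the list means of the groups overlapped. Of 7 measured platelet and megakaryocyte markers, 2 were lower at an unadjusted p under 0.05 from limma. The difference was below 0 for 5 and above 0 for 2. The mean over the list was 7.26 to 7.43 in the ARSB-null livers and 7.46 to 7.78 in the controls, and Ppbp had by far the largest difference. Without Ppbp the list means of the groups overlapped. Ppbp, the platelet basic protein, differed by -1.53 (adjusted p = 0.272), Gp9 by -0.59 (0.658), Itga2b by -0.23 (0.876) and Clec1b by 0.16 (0.962). The monocyte markers, of which 8 were measured, include Chil3, and the other 7 had an unadjusted p above 0.05. Of these, 4 had a lower mean in ARSB-null liver, Ccr2 (-0.36), Ms4a4c (-0.34), Vcan (-0.22) and F13a1 (-0.18), and 3 a higher one, Cx3cr1 (0.10), Plac8 (0.10) and Fn1 (0.06). The mean of all 8 was 6.55 to 6.70 against 6.74 to 6.89, but without Chil3 the groups overlapped, with 6.92 to 7.10 against 7.0 to 7.23, a summary added after the values were seen. Of 12 Kupffer cell markers, 4 were lower and 1 higher at that level, with Folr2 at -0.75, Cd163 at -0.77, C1qa at 0.39 and Adgre1 at -0.35, and the means overlapped (8.84 to 8.94 against 8.89 to 9.25). Whatever the p, 10 of the Kupffer cell markers had a lower mean in ARSB-null liver and 2 a higher one. For the 10 granule and calprotectin genes the mean was 5.51 to 5.59 in the ARSB-null livers and 5.76 to 5.80 in the controls. Among these are Chil3, Ngp, Ltf and Retnlg, the genes without overlap, and without them the means of the groups overlapped. The array gives every probe set a signal, so no defining marker can be called absent, and the part of these cell types in the differences was not tested.

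**Figure D3:**
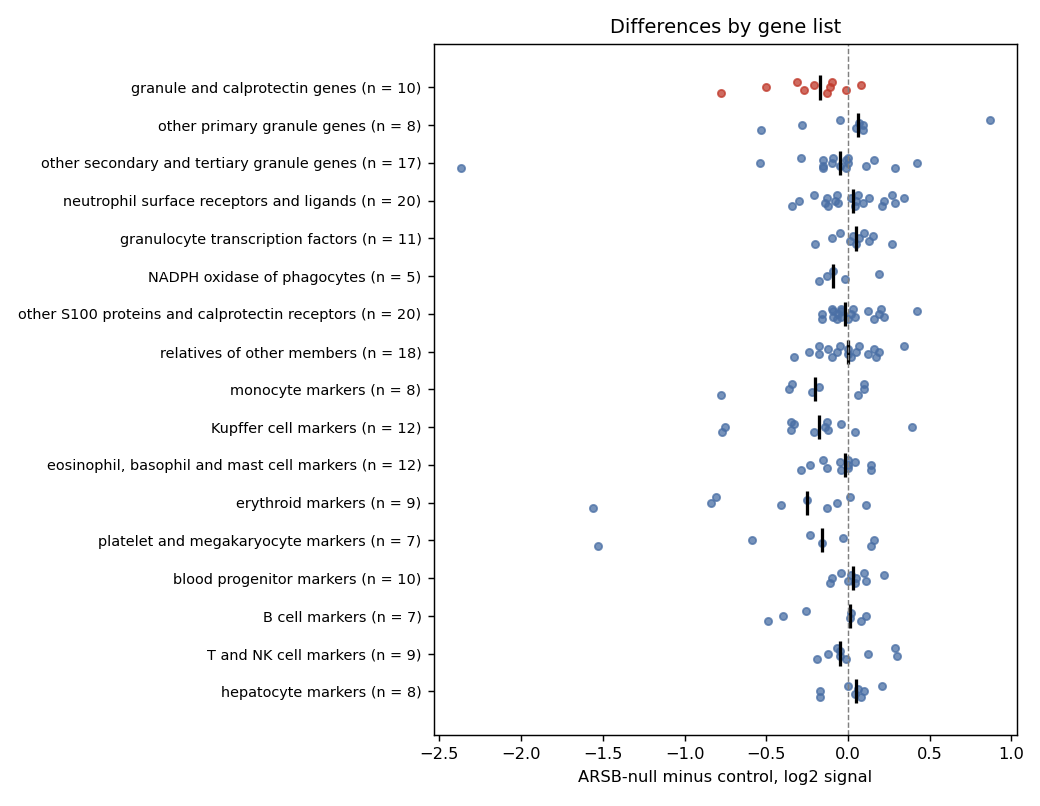
Log2 signal of ARSB-null minus control liver (horizontal axis) for the measured genes of each list, with the granule and calprotectin genes in red; each point is a gene and each black bar the median of its list. The red points run from -0.78 to 0.08 with a median of -0.17, and no gene shown passed an adjusted p of 0.05 from limma.

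**Figure D4:**
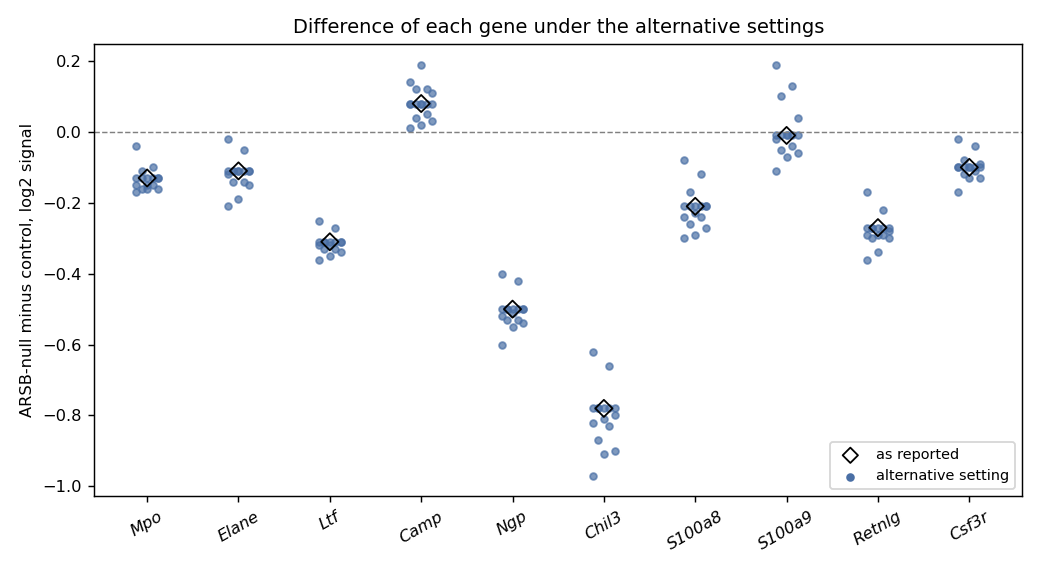
Log2 signal of ARSB-null minus control liver (vertical axis) for each of the 10 genes, as reported (open diamonds) and under each alternative setting (blue points). Chil3 stays between -0.97 and -0.62, Ngp between -0.60 and -0.40 and Ltf between -0.36 and -0.25, while S100a9 lies on both sides of 0.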

How the data were processed

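Hepatic RNA of 6 mice was measured on a mouse gene array, 1 array per mouse. The deposited values are log2 signals, made by the authors through quantile normalization and summarization into probe sets. RMA and Partek are listed in the submitters' processing notes, with no version, array library or build. The rows match the annotation of an earlier generation of the mouse array than the paper's methods name. Array medians lay between 6.5 and 6.60. Array weights estimated by limma, used only in an alternative fit, ran from 0.31 for the control numbered 4 to 3.19 for the control numbered 6. Quantile normalization hides a change shared by most genes.

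Gene symbols came from GEO's annotation of the platform and the RefSeq table of GRCm38.p6 (0 symbols changed). Of the 35556, 21789 had 1 symbol. For genes with several, the brightest over all arrays was used. Groups came from the sample titles and were compared by limma 3.58.1 in R 4.3.3 over all 35556 probe sets, two-sided, with Benjamini-Hochberg adjustment at 0.05. The paper's methods name an analysis of variance, which was run as an alternative, beside another prior, the replicate block, centring, quantile normalization, filters, array weights and arrays left out. The procedure was tested on simulated data, drawn independently for each array, as a check of the code. The power to find differences as small as those reported here is not given. The number of arrays limits the precision.

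Mice numbered alike were checked for pairing: their deviations from the group means, over all probe sets, correlated at 0.396 for number 4, 0.159 for 5 and 0.193 for 6, all above the limit of 0.1, so the numbers were treated as a possible pairing. An unlike-numbered pair, ARSB-null 6 with control 5, correlated at 0.22, above the values for 5 and 6. The labels do not say what they share.

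The members and the 16 other gene lists (202 genes, 177 of them measured by a probe set with 1 symbol) were chosen with earlier results of these data known. Genes named are the 10 members, Arsb, the genes with the nearest profiles and, from each list, up to 4 with the smallest p. Ly6g, Cxcr2, Mmp9, Cd177, Fcnb, Ctsg and Alb were named in addition, after their values were seen. The remaining monocyte markers, Ms4a4c, Cx3cr1, Plac8 and Fn1, were also named outside this rule. The motif letters were chosen after the values were seen.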

Additional observations from a re-analysis of the deposited data

How the results depend on the processing

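The 10 genes had 0 calls, lower or higher, at an adjusted p of 0.05 under each alternative that was run: the analysis of variance, a trended and robust prior, the replicate block, array medians centred, repeated quantile normalization, probe sets with 1 symbol without and with the replicate block, brighter probe sets (where Camp alone was left to test), array weights, the mean of a gene's probe sets, each array left out in turn, and both arrays numbered 4 left out. In the fit reported, the count was 0 at an adjusted p under 0.10 and 3 lower at an unadjusted p under 0.05, a level at which 3.19% of all probe sets were lower. Over the alternatives the smallest adjusted p was 0.0866, for Ngp on probe sets with 1 symbol with the replicate block, and 0.123 for Chil3 in the same fit. With the replicate block alone, for mice paired by number, the adjusted p was 0.374 for Ngp and 0.469 for Chil3, and the block changed no call. In several alternatives the log2 difference of these genes cannot change, and only its p can. These are the analysis of variance, the prior, the replicate block, the filters and the mean of a gene's probe sets. With these included, 157 of 161 single gene values kept their direction and side of the threshold. The other 4 were those of S100a9, whose log2 difference of -0.01 became 0.10 with array weights and 0.19 without both arrays numbered 4, and ran from -0.11 to 0.13 with 1 array left out. The median over the 10 genes, -0.17, was -0.21 without both arrays numbered 4 and -0.23 to -0.10 with 1 array left out, the value nearest 0 being that without the ARSB-null mouse numbered 5. With 1 array left out, 4 to 6 genes had all ARSB-null livers lower, against 10.5% to 13.8% of all probe sets. Without the control numbered 4, 1 gene lay higher (14.3% of all), and without both arrays numbered 4, 4 were lower and 2 higher (19.1% and 21.8% of all). The causes of the other shifts were not tested. The signals of these genes are low and without detection calls, which limits what a difference near background can show.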

Other observations

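Lists of further cell types showed the following values, beside 3.19% of all probe sets lower at an unadjusted p under 0.05 from limma. Of 7 measured B cell markers, 2 were lower at an unadjusted p under 0.05 from limma, Cd79a (log2 difference -0.40, adjusted p = 0.747) and Ms4a1 (-0.49, adjusted p = 0.821), and 0 after adjustment. Of 9 measured T and NK cell markers, 0 reached that level, with the smallest p for Ncr1 (0.29, adjusted p = 0.859). Of 12 measured markers of eosinophils, basophils and mast cells, 0 reached it, with the smallest p for Il5ra (-0.29, adjusted p = 0.907). Of 10 blood progenitor markers 0 reached it, with the smallest p for Cd48 (0.22, adjusted p = 0.958), and of 8 measured hepatocyte markers 0 reached it, with a median log2 difference of 0.05.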
